A study of Mus musculus with 10 samples.

Results

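Wnt signalling in a mouse glioma model was described through 51 genes of an FPKM matrix of 23230 features, and these genes encode Wnt ligands, their receptors, secreted inhibitors, nuclear TCF/LEF factors and feedback genes. The genes were chosen by symbol alone, as all *Wnt* genes with a number and at most the letter a or b, all *Fzd* genes, *Sfrp* and *Dkk* genes, *Wif1*, *Notum*, *Lrp5*, *Lrp6*, *Ror1*, *Ror2*, *Ryk*, *Tcf7*, *Tcf7l1*, *Tcf7l2*, *Lef1*, *Axin2*, *Nkd1* and *Lgr5*. They fell into 19 ligands, 10 Frizzled receptors, 5 co-receptors and other receptors, 10 secreted inhibitors, 4 TCF/LEF factors and 3 feedback and target genes. RNA was sequenced from 10 cultures, with 1 library each.

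AstroEGFR* were astrocytes from the cerebral cortex of C57BL/6 mice at postnatal day 5 that lacked *Ink4a/Arf* in all cells and carried a retroviral constitutively active human EGFR, and 3 batches were sequenced. PT were 4 cultures of glioma propagating cells grown from primary tumours that such astrocytes formed in the brain of CD1 Nude mice, so they carried the same deletion and the same transgene. AstroEGFR* Zfp423 were the 3 astrocyte batches infected in addition with a vector for *Zfp423*, a zinc finger transcription factor. Serum was present in the medium of AstroEGFR* and absent from that of PT, which contained EGF and FGF2 and was used on laminin, so the medium and the passage through a tumour cannot be told apart. All cultures were used at a passage below 10. A scheme in a figure of the study derives PT1 and PT4 from the same astrocyte batch, which the labels do not state. *Zfp423* was at 3.25 to 4.30 FPKM in AstroEGFR*, at 0.641 to 2.78 FPKM in PT and at 15.7, 9.73 and 105 FPKM in AstroEGFR*1, 2 and 3 with the vector.

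Wnt proteins are secreted lipid-modified ligands that bind Frizzled receptors on the cell surface. With the co-receptors LRP5 or LRP6 they stabilise beta-catenin, which enters the nucleus and acts with TCF/LEF factors, and with ROR, RYK and other receptors they act on cell polarity and movement without beta-catenin. SFRP proteins and WIF1 bind the ligand, most DKK proteins bind the LRP co-receptors and NOTUM removes the lipid, so these inhibitors act outside the cell. In the cortex the pathway is known for its part in precursor proliferation, patterning and vessel growth, and its inhibitors are often silenced in tumours.

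The promoters of 4 members are printed as examples. Their genes stood apart in every PT library, *Wif1*, *Wnt9a* and *Wnt5b* on the low side and *Fzd9* on the high side. Other members did as well, among the tested ones *Fzd7* and *Wnt2*, whose promoters are not printed. None of the 4 passed the adjusted threshold of the test given below. *Wif1* and *Wnt9a* were below 1 FPKM in every PT library, so their direction in that test was fixed in advance. Each run holds the 250 bases before the start of the gene, 5′ to 3′ on the strand of the gene, from RefSeq on GRCm38.p6, while the matrix was made on the earlier mm9 assembly. The positions are chr10:121033754-121034003 on the plus strand for *Wif1*, chr11:59306680-59306929 on the plus strand for *Wnt9a*, chr5:135251048-135251297 on the minus strand for *Fzd9* and chr6:119449387-119449636 on the minus strand for 1 of the 3 promoters of *Wnt5b*. Capitals mark each CpG in the first 3 and the TCF/LEF motif CTTTGAT in the last.
Wif1: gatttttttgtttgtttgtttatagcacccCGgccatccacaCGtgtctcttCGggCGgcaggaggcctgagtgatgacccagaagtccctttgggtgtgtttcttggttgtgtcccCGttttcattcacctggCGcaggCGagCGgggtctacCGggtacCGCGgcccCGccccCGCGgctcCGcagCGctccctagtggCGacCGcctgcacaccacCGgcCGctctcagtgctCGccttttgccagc
Wnt9a: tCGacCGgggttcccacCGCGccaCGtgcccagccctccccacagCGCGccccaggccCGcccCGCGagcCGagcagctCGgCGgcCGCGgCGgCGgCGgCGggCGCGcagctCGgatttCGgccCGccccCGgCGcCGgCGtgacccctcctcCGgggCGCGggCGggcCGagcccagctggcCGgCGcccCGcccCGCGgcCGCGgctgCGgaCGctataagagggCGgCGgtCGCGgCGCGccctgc
Fzd9: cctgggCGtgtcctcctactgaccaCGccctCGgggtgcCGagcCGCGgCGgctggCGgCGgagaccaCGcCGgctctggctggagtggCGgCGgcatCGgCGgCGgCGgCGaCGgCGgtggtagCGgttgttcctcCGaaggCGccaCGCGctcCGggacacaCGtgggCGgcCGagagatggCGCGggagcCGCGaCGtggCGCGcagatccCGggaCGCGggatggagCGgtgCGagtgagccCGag
Wnt5b: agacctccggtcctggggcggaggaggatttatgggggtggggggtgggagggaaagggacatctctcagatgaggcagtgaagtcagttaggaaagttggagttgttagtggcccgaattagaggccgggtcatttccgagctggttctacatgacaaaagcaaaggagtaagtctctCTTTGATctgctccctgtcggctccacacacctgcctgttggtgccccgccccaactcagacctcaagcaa
The stretches of *Wif1*, *Wnt9a* and *Fzd9* held 21, 48 and 42 CpG, and that of *Wnt5b* held 7. It is shown for the motif, and the other 2 promoters of *Wnt5b* held no motif and 4 and 47 CpG in 300 bases.

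Promoters of 300 bases (250 before and 50 after the start) were found for 35 of the 51 members, with 43 promoters in all. The members' promoters held a median of 25 CpG, and the median was 7 over all 32851 promoters of the table and 21 over those of the features tested between PT and AstroEGFR*. At least 20 CpG were found in 62.8% of the members' promoters, in 26.5% of all promoters and in 54.6% of those of tested features. The letters CTTTGAT or CTTTGAA, which are forms of the TCF/LEF motif and do not overlap each other, were searched on both strands. They were found in 3 of the 43 promoters, 1 each of *Wnt5b*, *Wnt11* and *Dkk1*, which is 6.98%, and in 8.65% of all promoters and 5.58% of those of tested features. The promoter of *Axin2*, a feedback gene of the pathway, held neither form in this window. *Dkk3*, *Dkk4*, *Fzd2*, *Fzd3*, *Fzd6*, *Fzd8*, *Lgr5*, *Lrp5*, *Lrp6*, *Notum*, *Sfrp1*, *Sfrp4*, *Wnt10a*, *Wnt5a*, *Wnt7b* and *Wnt8a* had no entry.

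Before the members, the libraries were compared as a whole. FPKM, fragments scaled to transcript length and to the size of the library, summed to between 361102 and 860068. Small non-coding RNA took 0.742%, 27.7% and 4.85% of the sum in AstroEGFR*1, 2 and 3 and 35.2%, 35.1% and 54.5% with *Zfp423*. In PT1, 2, 3 and 4 it took 0.755%, 34.0%, 6.11% and 1.03%. Both the sum and this share were higher in every library with *Zfp423* than in every AstroEGFR* library. AstroEGFR*3 and PT3 listed the fewest features above 0, 14813 and 14075, and the highest 5th percentiles of positive values, 0.0986 and 0.0768 FPKM against 0.0124 to 0.0203 FPKM elsewhere. The housekeeping gene *Gapdh* was listed at 0.0106 to 50.1 FPKM, so a gene at or near 0 is only said to be listed there. Of 10 astrocyte markers, all 10 reached 1 FPKM in every AstroEGFR* library, 8 to 10 did in PT and 6 did in AstroEGFR*2 Zfp423, where *Gfap* was at 1.11 FPKM and *Aqp4* was listed at 0.0266 FPKM.

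Most ligands were listed at low values and most receptors were not. Of the 51 members, 13 stayed below 1 FPKM in all 10 libraries, 10 ligands and 3 inhibitors, and 15 were at 1 FPKM or more in all 10. *Wnt1*, *Wnt3*, *Wnt3a*, *Wnt6*, *Wnt8a*, *Wnt8b*, *Wnt9b*, *Wnt10a*, *Wnt10b*, *Wnt16*, *Dkk1*, *Dkk4* and *Sfrp5* were the 13. By contrast 8 of 10 Frizzled genes reached 1 FPKM in every library, and the exceptions were *Fzd9* and *Fzd10*.

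**Figure D1:**
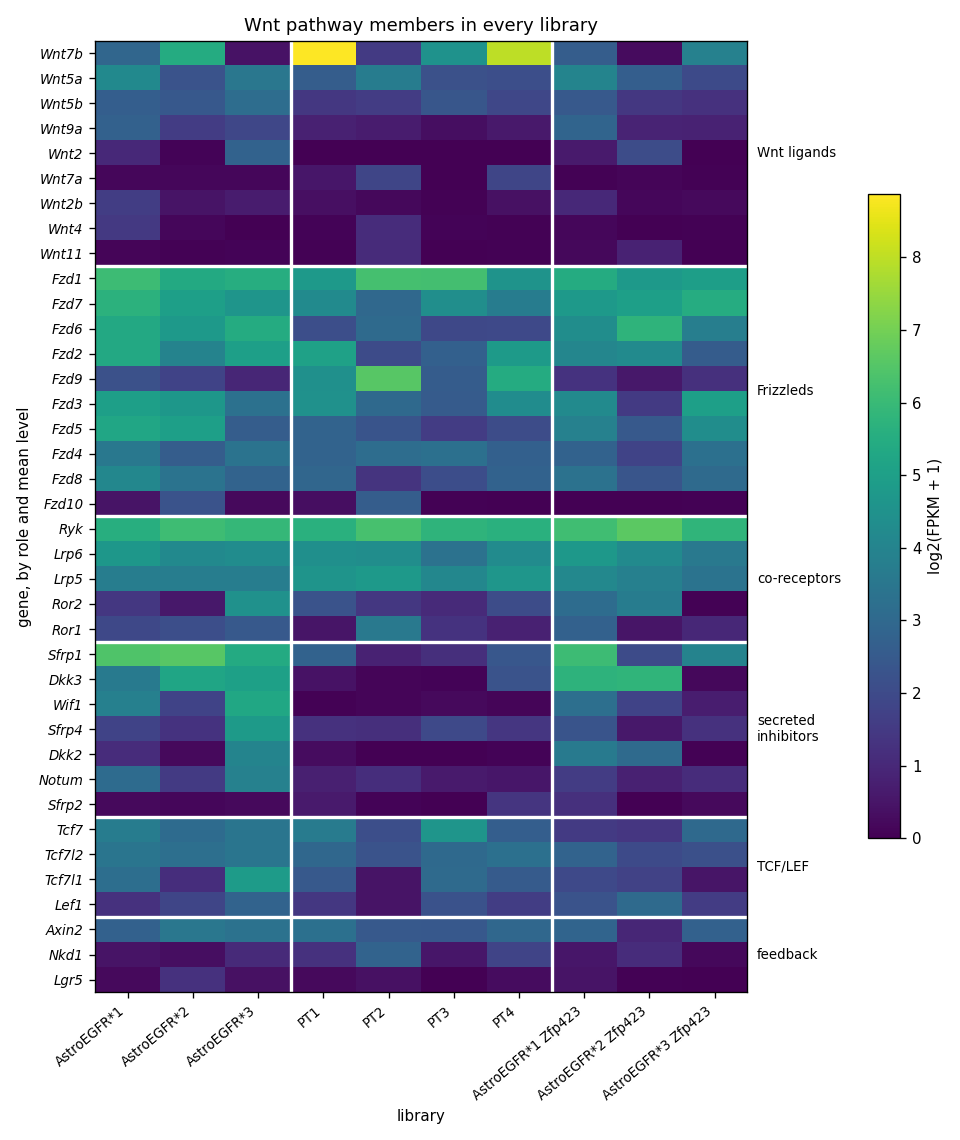
Level of each member that reached 1 FPKM in at least 1 library, as log2(FPKM + 1) by colour, with genes in rows by role and mean level and the 10 libraries in columns by group. *Ryk*, *Lrp5* and *Lrp6* keep a like colour across the row, the secreted inhibitors are dark in the 4 PT columns, and *Wnt7b* is brightest in PT1 and PT4.

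PT were first compared with AstroEGFR* to see which members differ between the tumour-derived cells and the transformed astrocytes from which tumours arise. The frizzled receptor *Fzd6* and the secreted inhibitors *Sfrp1* and *Dkk3* fell in PT, by 2.92, 4.32 and 3.91 on the log2(FPKM + 1) scale, and 0 members rose. The test was limma on log2(FPKM + 1), features had to average 1 FPKM or more over the 7 libraries, p-values were adjusted over all 12261 features by the Benjamini-Hochberg method and the threshold was 0.05. The filter left 32 of the 51 members, and 19 members were tested in neither comparison. Over all features, 0.922% fell and 0.318% rose, and among the tested members 3 of 32 fell. The fit used no block, so PT1 and PT4 counted as separate cultures. With the batch as a block *Dkk3* lost its call, and *Fzd6* and *Sfrp1* kept theirs only with PT4 placed in batch 1.

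At an unadjusted p below 0.05, 10 members were lower and 2 were higher in PT, against 7.69% of features lower and 5.88% higher. For 9 members the highest PT value lay under the lowest AstroEGFR* value, which held for 7.81% of features, and for 2 members all PT values lay above, which held for 6.95%. *Dkk2*, *Wif1*, *Wnt2* and *Wnt9a* were below 1 FPKM in all 4 PT libraries, so the filter fixed their direction. In AstroEGFR* 0 members were below 1 FPKM in every library. With features below 1 FPKM in a whole group set aside, 24 of 28 members had a negative difference against 47.8% of features. Their median was -0.59 against 0.03, and 6 of 28 had all PT values below AstroEGFR* against 6.61% of features. The 28 still hold *Notum*, which averaged 0.746 FPKM in PT, and *Nkd1*, which averaged 0.577 FPKM in AstroEGFR*. The filter fixed the direction of the mean FPKM difference for both. These counts are given as a description. The medians by role, with those 4 kept in, were -2.78 for 6 tested inhibitors, -0.93 for 10 Frizzled genes, -0.93 for 5 ligands, -0.33 for 5 co-receptors, -0.52 for 4 TCF/LEF factors and 0.28 for 2 feedback genes.

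**Figure D2:**
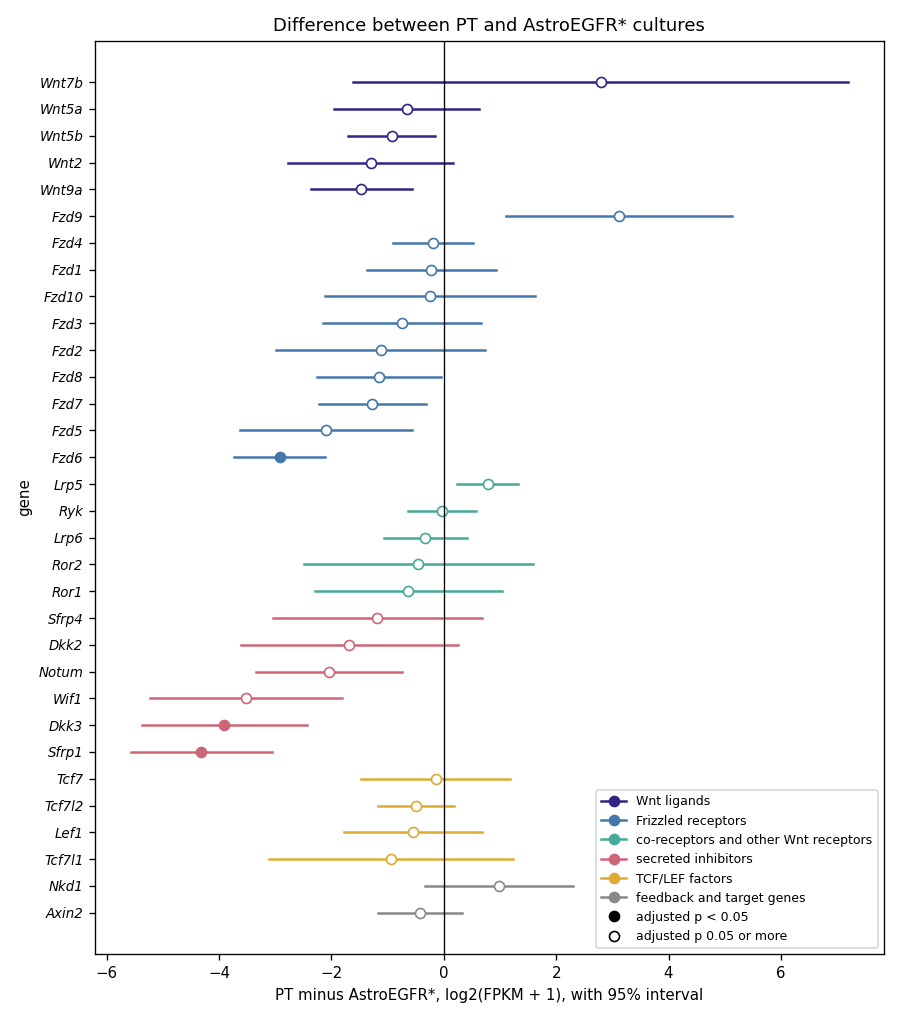
Difference between the mean log2(FPKM + 1) of 4 PT and 3 AstroEGFR* libraries for each of the 32 tested members, with its 95% interval from limma, coloured by role; filled points have an adjusted p below 0.05. The 3 filled points are *Sfrp1*, *Dkk3* and *Fzd6*, all on the negative side, and *Fzd9* lies farthest on the positive side.

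Among the ligands, *Wnt7b*, a ligand of beta-catenin signalling in brain vessels and cortex, had the widest range of all members. It was at 6.56, 42.5 and 0.335 FPKM in AstroEGFR*1, 2 and 3, and at 466, 1.83, 21.7 and 253 FPKM in PT1, 2, 3 and 4. PT1 and PT4 stood far above all other libraries while PT2 and PT3 lay within the AstroEGFR* range, so the groups overlapped. *Wnt7b* took 98.2% and 96.3% of the summed ligand FPKM in PT1 and PT4. Those libraries also had the highest sums of 7 markers of neural progenitor or glioma propagating cells. The sums were 3339 and 3703 FPKM against 874 and 430 FPKM in PT2 and PT3, and the part of this in the values of *Wnt7b* was not tested. The mean difference was 2.79 ± 1.90 (SE, n = 3 and 4, limma adjusted p = 0.591). Here and for the genes below, PT libraries were set in batches by their number, with PT4 in batch 1. The PT titles do not name a batch. On this pairing PT minus AstroEGFR* was 5.95 and 5.07 for PT1 and PT4 against AstroEGFR*1, -3.94 in batch 2 and 4.09 in batch 3.

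The 4 other tested ligands had negative differences, and 0 of them passed the threshold. *Wnt9a*, a ligand of beta-catenin signalling, was at 5.79, 1.97 and 2.73 FPKM in AstroEGFR* and at 0.766, 0.609, 0.261 and 0.523 FPKM in PT. Its highest PT value lay below its lowest AstroEGFR* value, with a difference of -1.47 ± 0.39 (SE, limma adjusted p = 0.141). All its PT values were below 1 FPKM, so the filter fixed this direction. *Wnt5b*, a ligand known for signalling without beta-catenin, was at 5.21, 4.47 and 7.92 FPKM in AstroEGFR* and at 1.70, 1.998, 4.13 and 2.72 FPKM in PT. These groups did not overlap either, with a difference of -0.93 ± 0.33 (SE, limma adjusted p = 0.285). *Wnt5a*, the relative of *Wnt5b*, was at 3.39 to 12.1 FPKM in PT and 3.81 to 17.6 FPKM in AstroEGFR* and overlapped. It was the leading ligand in AstroEGFR*1, AstroEGFR*3, PT2 and the first 2 libraries with added *Zfp423*. *Wnt2* was listed at no more than 0.00900 FPKM in PT and at 0.0577 to 5.97 FPKM in AstroEGFR*.

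The Frizzled receptors summed to 296, 190 and 174 FPKM in AstroEGFR* and to 141, 212, 125 and 142 FPKM in PT, so that 3 of 4 PT libraries lay below AstroEGFR* and PT2 within its range. *Fzd1* was the highest Frizzled on average, at 66.4, 41.0 and 45.1 FPKM in AstroEGFR* and at 25.9, 75.8, 72.7 and 22.6 FPKM in PT. Its PT values lay on both sides of AstroEGFR*, and the difference was -0.22 with a 95% interval of -1.37 to 0.93.

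*Fzd6*, a Frizzled known for hair and tissue polarity, was at 39.9, 26.5 and 42.7 FPKM in AstroEGFR* and at 3.43, 7.38, 2.81 and 2.89 FPKM in PT. The groups lay well apart, with a drop of 2.92 ± 0.35 on the log2 scale (SE, limma adjusted p = 0.0130). By batch PT minus AstroEGFR* was -3.21 and -3.39 for PT1 and PT4, -1.72 in batch 2 and -3.52 in batch 3. The exact two-sided permutation p of *Fzd6* was 0.0286, the smallest that 35 splits of 7 libraries can give, in a test that takes no account of the batch that libraries share or of the common origin of PT1 and PT4. *Fzd6* took 13.5% to 24.6% of the Frizzled FPKM in AstroEGFR* and 2.04% to 3.48% in PT. The call was lost without AstroEGFR*1 (limma adjusted p = 0.0809), without AstroEGFR*3 (0.0620), without AstroEGFR*3 and PT3 (0.113) and with the replicate block that leaves PT4 unpaired (0.0978).

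*Fzd9*, a Frizzled of neural precursors, went the other way. It was at 3.57, 2.42 and 0.957 FPKM in AstroEGFR* and at 20.8, 93.1, 4.94 and 43.2 FPKM in PT. Every PT library was above every AstroEGFR* library, and the difference of 3.11 ± 0.87 (SE, limma adjusted p = 0.1597) missed the threshold. It passed without PT3, the lowest PT value, at 3.84 (limma adjusted p = 0.0474). *Fzd9* was the leading Frizzled in PT2 and PT4, where it took 43.9% and 30.5% of the Frizzled FPKM, and in AstroEGFR* its share was 0.551% to 1.28%.

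**Figure D3:**
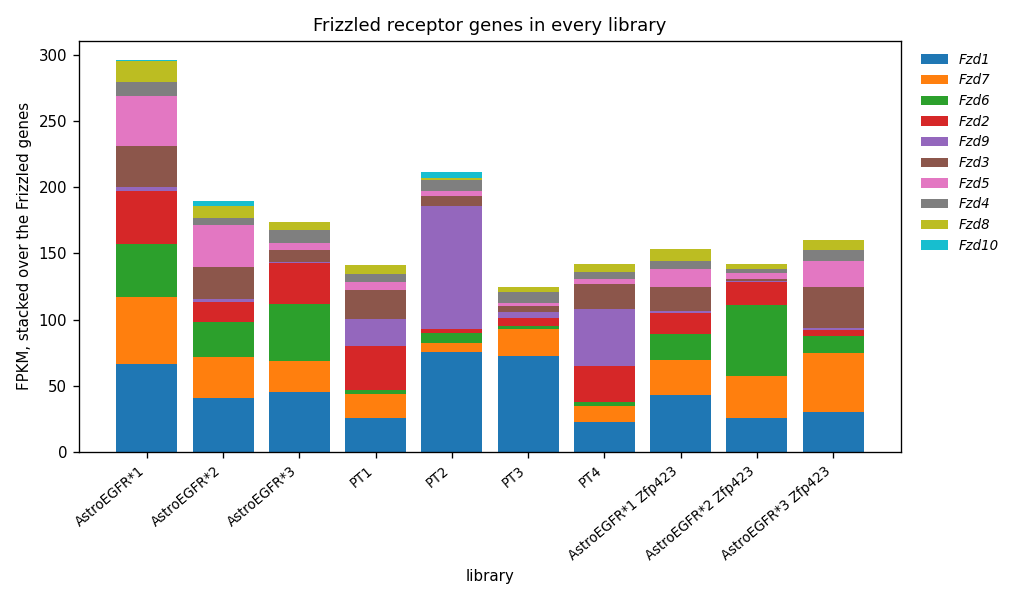
FPKM of the 10 Frizzled genes, stacked from 0 for each of the 10 libraries, with 1 colour per gene. The *Fzd9* block is thick in PT1, PT2 and PT4 and thin in AstroEGFR*, while the *Fzd6* block is thin in all 4 PT libraries.

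Of the remaining Frizzled genes, *Fzd5*, *Fzd7* and *Fzd8* had negative differences that passed an unadjusted p of 0.05 and missed the adjusted threshold. *Fzd5*, a Frizzled known from eye and gut development, was at 37.1, 31.5 and 5.06 FPKM in AstroEGFR* and at 6.12, 3.99, 1.98 and 3.15 FPKM in PT. AstroEGFR*3 lay inside the PT range, and the difference was -2.09 ± 0.66 (SE, limma adjusted p = 0.211). Without AstroEGFR*3 *Fzd5* passed, at -2.94 (limma adjusted p = 0.0471). *Fzd7*, a widely used Frizzled of progenitor cells, was at 50.9, 30.8 and 23.9 FPKM in AstroEGFR* and at 17.8, 6.91, 19.98 and 12.3 FPKM in PT, which did not overlap. Its difference was -1.27 ± 0.41 (SE, limma adjusted p = 0.227). *Fzd8* was at 16.2, 9.40 and 6.13 FPKM against 6.61, 1.54, 3.32 and 5.85 FPKM, and PT1 lay above AstroEGFR*3, with a difference of -1.15 ± 0.47 (SE, limma adjusted p = 0.345). *Fzd2*, *Fzd3*, *Fzd4* and *Fzd10* overlapped between the groups.

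Of the 5 co-receptors and other receptors, 4 overlapped between the groups. *Ryk*, an atypical receptor and the highest of this role on average, was at 46.2, 67.6 and 58.5 FPKM in AstroEGFR* and at 48.5, 76.4, 53.8 and 47.9 FPKM in PT. The difference of *Ryk* was -0.03, with a 95% interval of -0.63 to 0.58. *Lrp5*, a co-receptor for beta-catenin signalling, was at 12.4 FPKM in each of the 3 AstroEGFR* libraries and at 23.3, 26.0, 16.2 and 24.0 FPKM in PT. All PT values of *Lrp5* were higher, with a difference of 0.78 ± 0.23 (SE, limma adjusted p = 0.183). Its partner *Lrp6* was at 9.08 to 20.2 FPKM in PT and 17.6 to 25.2 FPKM in AstroEGFR*. *Ror1* and *Ror2*, receptors for WNT5A, overlapped.

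The 10 secreted inhibitors summed together were at 122.7, 135 and 168 FPKM in AstroEGFR* and at 9.18, 3.62, 4.97 and 11.98 FPKM in PT. Of the 4 tested inhibitors that reached 1 FPKM in a PT library, *Sfrp1*, *Dkk3*, *Notum* and *Sfrp4*, all 4 had a negative difference and 2 passed the threshold. PT values lay all below AstroEGFR* for 3, *Sfrp1*, *Dkk3* and *Notum*, which held for 6.61% of features. *Notum* averaged 0.746 FPKM in PT, so the filter fixed its direction and it adds nothing to these counts. In bulk cultures, fewer cells that express a gene and less RNA per cell cannot be told apart.

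*Sfrp1*, which binds Wnt ligands, was the highest inhibitor on average, at 86.0, 92.5 and 41.4 FPKM in AstroEGFR* and at 5.90, 0.821, 1.31 and 4.30 FPKM in PT. No PT library came near AstroEGFR*, and *Sfrp1* fell by 4.32 ± 0.54 (SE, limma adjusted p = 0.0145). By batch the difference was -3.65 and -4.04 for PT1 and PT4, -5.68 in batch 2 and -4.20 in batch 3. The call was lost without AstroEGFR*1 (limma adjusted p = 0.0948), in the fit of all 10 libraries (0.0644), without AstroEGFR*3 and PT3 (0.0895) and with the replicate block that leaves PT4 unpaired (0.0626).

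*Dkk3*, a member of the DKK family whose action on the pathway depends on the cell, was at 11.6, 36.2 and 31.9 FPKM in AstroEGFR* and listed at 0.356, 0.0882, 0.0736 and 3.77 FPKM in PT. PT4 was above the other PT libraries and still below every AstroEGFR* library, and *Dkk3* fell by 3.91 ± 0.63 (SE, limma adjusted p = 0.0338). By batch its difference was -3.21 and -1.40 for PT1 and PT4, -5.10 in batch 2 and -4.94 in batch 3. The call held in 5 of 17 other settings, and the limma adjusted p ranged from 0.0318 to 0.228. It was lost with the replicate block, at a limma adjusted p of 0.0699 with PT4 unpaired and 0.0531 with PT4 in batch 1, and also without any 1 of AstroEGFR*1, 2, 3 and PT1, 2, 3, with limma adjusted p of 0.0697 to 0.132.

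*Wif1*, which binds Wnt ligands, was at 13.7, 2.42 and 38.2 FPKM in AstroEGFR* and listed at 0.0267, 0.0845, 0.171 and 0.0870 FPKM in PT. The groups did not overlap, and the difference was -3.52 ± 0.74 (SE, limma adjusted p = 0.0774). *Wif1* was below 1 FPKM in all PT libraries, so the filter fixed its direction. It passed in 3 of 17 other settings. These were the replicate block that places PT4 in batch 1 (limma adjusted p = 0.0466), a pseudocount of 0.1 (0.0380) and the fit without AstroEGFR*2 (0.0193). In the other settings the limma adjusted p ranged up to 0.292. *Notum*, which removes the lipid from Wnt ligands, was at 7.56, 1.82 and 13.8 FPKM in AstroEGFR* and at 0.729, 1.23, 0.576 and 0.450 FPKM in PT. These groups did not overlap, with a difference of -2.04 ± 0.56 (SE, limma adjusted p = 0.151). *Notum* averaged 0.746 FPKM in PT, so the filter fixed its direction too. It passed in 1 of 17 other settings, without AstroEGFR*2 (limma adjusted p = 0.0386), and the limma adjusted p ranged up to 0.455. *Sfrp4* and *Dkk2* were highest in AstroEGFR*3, at 27.2 and 14.9 FPKM, and overlapped between the groups.

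**Figure D4:**
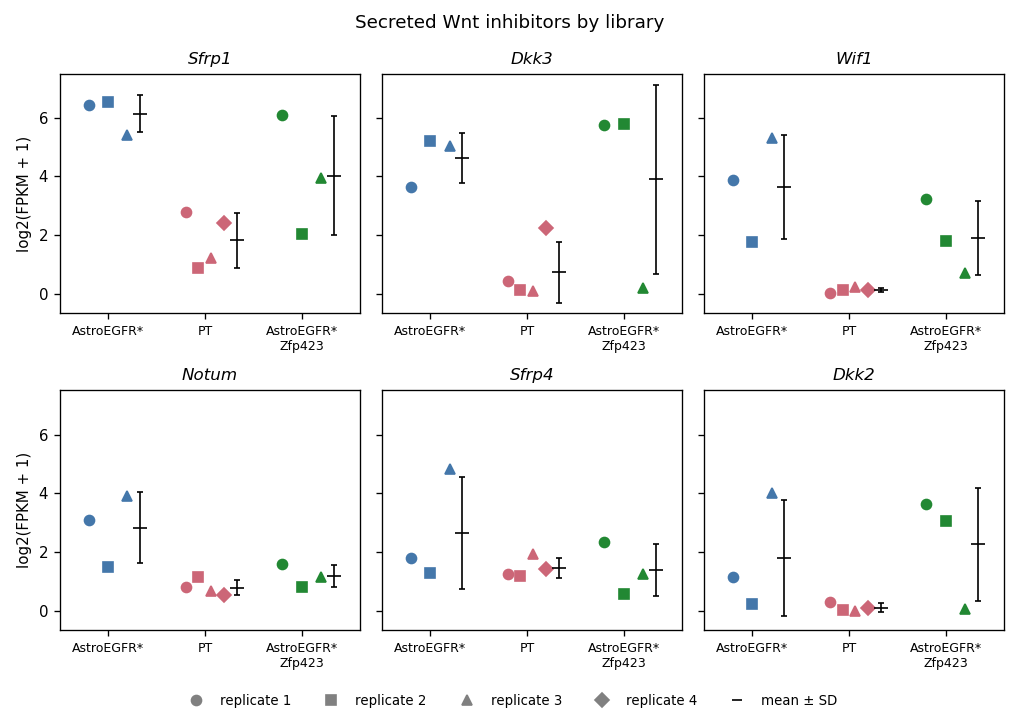
Level of the 6 tested secreted inhibitors as log2(FPKM + 1) in 3 AstroEGFR*, 4 PT and 3 AstroEGFR* Zfp423 libraries; each point is a library, its shape is the replicate number, and the black bar is the mean ± SD. *Sfrp1*, *Dkk3*, *Wif1* and *Notum* are lower in all 4 PT libraries than in any AstroEGFR* library, and the green points spread widely.

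Lists of cell type markers were read for the same contrast. Of 10 astrocyte markers, 5 differences were positive and 5 were negative. Of 6 neuron markers 2 were tested, 1 of each sign, and of 5 endothelial markers 0 were tested. The summed FPKM of 9 fibroblast, meningeal and pericyte markers was 1600 to 8554 in AstroEGFR*, highest in AstroEGFR*3, and 16.2 to 383 in PT. All 9 were tested, all 9 differences were negative and 3 fell, and none was at 0 throughout, since 8 or 9 reached 1 FPKM in AstroEGFR* and 1 to 8 in PT. The summed FPKM of 7 microglia markers was 5.79 to 38.6 in AstroEGFR* and 0.219 to 2.53 in PT, but 1 or 2 of the 7 reached 1 FPKM in AstroEGFR* and 1 was tested. *Tmem119* made up most of the AstroEGFR* sum, at 7.61, 4.89 and 38.0 FPKM, and *P2ry12* was higher in PT1 and PT4, at 0.782 and 2.10 FPKM, than in AstroEGFR*, at 0.0712 to 0.272 FPKM. Of 7 markers of neural progenitor or glioma propagating cells, 5 differences were positive and 1 marker rose, *Bcan*, by 4.51 (limma adjusted p = 0.0103). The sum of the 7 was 581 to 1685 FPKM in AstroEGFR* and 430 to 3703 FPKM in PT. The 7 oligodendrocyte lineage markers summed to 5.65 to 13.6 FPKM in AstroEGFR* and to 1.19 to 240 FPKM in PT, highest in PT4. The part of these markers in the values of the inhibitors, *Fzd6*, *Fzd9* and the ligands was not tested.

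The TCF/LEF factors and the feedback genes overlapped between PT and AstroEGFR*. *Tcf7*, the highest of the TCF/LEF factors on average, was at 12.2, 7.64 and 9.86 FPKM in AstroEGFR* and at 11.8, 3.43, 23.7 and 5.34 FPKM in PT. *Axin2*, a beta-catenin target that limits the pathway, was at 5.73, 10.4 and 9.16 FPKM in AstroEGFR* and at 8.71, 4.61, 4.40 and 6.72 FPKM in PT. Its PT values lay on both sides of AstroEGFR*1, and the difference was -0.42 with a 95% interval of -1.16 to 0.33. *Nkd1*, another feedback gene, was at 0.265 to 1.07 FPKM in AstroEGFR* and 0.451 to 6.14 FPKM in PT. *Lgr5*, a receptor for R-spondins, stayed below the filter.

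A further list of 64 pathway genes was read beside the members, and 63 were in the matrix. Of the 50 tested between PT and AstroEGFR*, 1 fell and 0 rose, and the median difference was -0.09. At an unadjusted p below 0.05, 5 were lower and 2 were higher, against 7.69% and 5.88% of features. The one that fell was *Lgr4*, a receptor for R-spondins that raises Frizzled at the membrane, at 27.7, 17.2 and 19.2 FPKM in AstroEGFR* and at 3.50, 5.96, 5.80 and 2.95 FPKM in PT. *Lgr4* dropped by 2.03 ± 0.31 (SE, limma adjusted p = 0.0285). *Ctnnb1*, which encodes beta-catenin, was at 237 to 408 FPKM in PT and 363 to 581 FPKM in AstroEGFR*, and *Wls*, needed for ligand secretion, differed by 0.07. *Ccnd1*, a target gene, differed by -0.06 and *Ptk7*, a polarity receptor, by 0.05, while *Ctnnbip1*, which blocks beta-catenin, differed by -1.43 (limma adjusted p = 0.107) and *Tle3*, a co-repressor, by -1.10 (0.259). The 2 higher genes, named after their values were seen, were the target gene *Myc*, by 1.00 ± 0.30 (SE, limma adjusted p = 0.194), and the co-repressor *Tle2*, by 0.94 ± 0.34 (0.282), and every PT library lay above AstroEGFR* for both. The 2 remaining lower genes, named in the same way, were *Tpbg*, an inhibitor at the membrane, by -1.54 (limma adjusted p = 0.0643), and *Dact1*, an intracellular antagonist, by -1.31 (0.227).

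The second comparison asked whether *Zfp423* added to AstroEGFR* alters the same genes, and it used the same 3 AstroEGFR* libraries as controls. Of 30 tested members, 0 passed the threshold in the fit with the astrocyte batch as a block, and 0% of all 12366 features did (limma), while 913 features had an unadjusted p below 0.05. At that level 4 members were lower and 0 were higher, against 4.08% of features lower and 3.3% higher. The 4 were the TCF/LEF factors *Tcf7* and *Tcf7l2*, the inhibitor *Notum* and the receptor *Fzd1*, each with an adjusted p of 0.628.

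*Tcf7* was at 12.2, 7.64 and 9.86 FPKM in AstroEGFR* and at 1.82, 1.63 and 7.15 FPKM with *Zfp423*. All 3 values were lower, and the difference was -1.45 ± 0.45 (SE, n = 3 and 3, limma adjusted p = 0.628). *Tcf7l2* was at 9.98, 8.42 and 9.81 FPKM in AstroEGFR* and at 6.15, 2.94 and 3.52 FPKM with *Zfp423*. These groups did not overlap either, and the difference was -1.05 ± 0.29 (SE). In PT *Tcf7l2* was at 6.78, 3.82, 7.09 and 8.65 FPKM.

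*Notum* was at 1.98, 0.758 and 1.21 FPKM with *Zfp423*, which differed from AstroEGFR* of the same batch by -1.52, -0.68 and -2.75. *Fzd1* was at 43.1, 26.1 and 30.3 FPKM with *Zfp423*, with differences of -0.61, -0.63 and -0.56, the narrowest spread among these 4 genes. Differences were negative in all 3 batches for 7 of the 30 tested members, against 15.2% of features, and positive in all 3 for 0, against 16.3%. The other 3 of the 7 were *Sfrp1*, *Wnt5b* and *Fzd4*.

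For 12 of the 30 members, and for 32.3% of all tested features, batch 3 went the opposite way to both batches 1 and 2. This count and each difference by batch rest on the batch numbers in the labels. *Dkk3* was listed at 52.7, 54.4 and 0.135 FPKM with *Zfp423*, and it differed from AstroEGFR* by 2.09, 0.57 and -4.86 on the log2 scale in batches 1, 2 and 3. *Dkk2* and *Ror2*, named after their values were seen, had the same signs, listed at 11.5, 7.30 and 0.0442 FPKM and at 7.87, 12.4 and 0.0309 FPKM. *Wnt7b*, *Fzd3* and *Fzd5* showed the reverse, lower in batches 1 and 2 and higher in batch 3. *Wnt7b* was at 5.12, 0.204 and 13.8 FPKM with *Zfp423*, and *Fzd5* at 13.8, 4.63 and 19.3 FPKM.

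*Sfrp1* was at 67.3, 3.10 and 14.5 FPKM with *Zfp423*, and its lowest value was that of AstroEGFR*2 Zfp423. *Wif1* was at 8.33, 2.44 and 0.624 FPKM with *Zfp423*, and in batch 2 it differed from AstroEGFR* by 0.01 on the log2 scale. *Fzd6* was at 19.4, 53.3 and 12.9 FPKM and *Fzd9* at 1.48, 0.472 and 1.37 FPKM with *Zfp423*. *Axin2* was at 6.25, 0.942 and 5.74 FPKM, and the value in AstroEGFR*2 Zfp423 was its lowest of all 10 libraries. *Wnt5b* was at 4.52, 1.68 and 1.38 FPKM, with its largest distance from AstroEGFR* in batch 3 (-1.91).

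The receptors *Ryk* and *Lrp5* were at 70.5, 99.2 and 54.2 FPKM and at 16.8, 13.6 and 9.43 FPKM with *Zfp423*, both above AstroEGFR* in batches 1 and 2 and below it in batch 3. *Fzd7* was at 26.5, 31.3 and 44.3 FPKM and *Fzd8* at 9.11, 4.07 and 7.36 FPKM. *Wnt9a* was at 6.28, 0.855 and 0.783 FPKM. All 5 overlapped with AstroEGFR*, and each changed sign between batches.

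**Figure D5:**
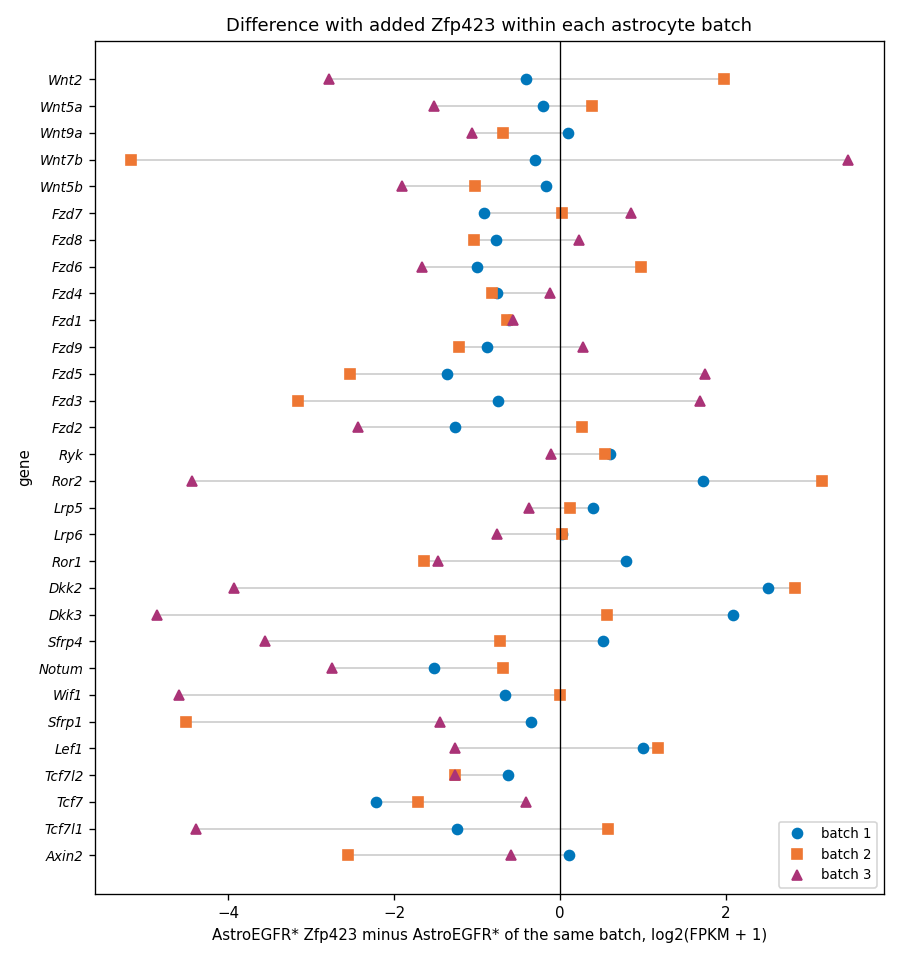
Difference in log2(FPKM + 1) between AstroEGFR* with and without added *Zfp423* for each of the 30 tested members in batches 1, 2 and 3, with 1 point per batch and a grey line over their range. The points of *Fzd1* lie close together on the negative side, while those of *Dkk3*, *Dkk2*, *Ror2* and *Wnt7b* lie on both sides of 0.

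The cell type markers also differed between the 3 batches with *Zfp423*. The 9 fibroblast, meningeal and pericyte markers summed to 6132, 9266 and 357 FPKM, the 7 microglia markers to 463, 287 and 0.156 FPKM and the 10 astrocyte markers to 220, 65.1 and 934 FPKM. All 7 microglia markers reached 1 FPKM in AstroEGFR*1 Zfp423 and AstroEGFR*2 Zfp423, with *Csf1r* at 202 and 108 FPKM, and 0 of 7 did in AstroEGFR*3 Zfp423. Deviations from the group means were taken over features that averaged 1 FPKM or more over the 10 libraries. They correlated with those of the AstroEGFR* library of the same number at 0.24, -0.11 and -0.26. AstroEGFR*2 Zfp423 correlated with AstroEGFR*3 at 0.31 and AstroEGFR*3 Zfp423 with AstroEGFR*2 at 0.22. The labels give the numbers as the astrocyte batch, and the block and the differences by batch depend on them. The part of these markers in the values of *Dkk3*, *Dkk2*, *Ror2*, *Sfrp1* and *Axin2* was not tested. Of the 52 further pathway genes tested with *Zfp423*, 0 passed the threshold, and at an unadjusted p below 0.05 6 were lower and 0 were higher, against the 4.08% and 3.3% of features above.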

How the data were processed

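The authors deposited 1 matrix of FPKM values for 10 libraries. The labels name TopHat 1.3, Cuffnorm and mm9 and a TruSeq RNA kit, while the study's methods describe stranded libraries after ribosomal RNA removal. The Zfp423 vector is lentiviral in the labels and retroviral in the methods. FPKM hold no read counts, so the depth behind each value is unknown and no count model was used.

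Members were taken by symbol. The members and lists were chosen with earlier results of these data known. Values in every library were given for members past the adjusted threshold or at an unadjusted p below 0.05 in either comparison, the highest of each role and *Wnt7b*. Other genes were given mostly by range, and the exceptions include *Lgr4*, *Dkk2*, *Ror2* and some markers. Differences were fitted with limma 3.58.1 in R 4.3.3 (trend, Benjamini-Hochberg over all features), PT without a block and Zfp423 with the astrocyte batch as a block. p-values measure the spread between these cultures only. Same-numbered AstroEGFR* and PT libraries deviated together (r of 0.35, 0.43 and 0.50), and on that ground the numbers were taken to pair them. The PT titles give a number and name no astrocyte batch, so this pairing is inferred. With the batch as a replicate block, 3 members passed when PT4 was placed in batch 1 and 0 when PT4 was left unpaired.

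The scripts were tested on simulated data. Alternatives concerned the pseudocount, filter, scaling, trend, block, all libraries in 1 fit, PT1 and PT4 averaged, and libraries left out. AstroEGFR*3 and PT3 were both left out as an alternative chosen after seeing the data. Summaries used Python 3.11.15, numpy 2.4.6, pandas 2.3.3 and matplotlib 3.10.9. ChIPseq and tumour data were not analysed here.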

Additional observations from a re-analysis of the deposited data

Results flagged for a closer look

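Within the 4 PT libraries, 32 members were screened for a library that lay apart from the rest, by the gap to its nearest neighbour as a share of the whole range, both on the log2(FPKM + 1) scale, with Dixon's 95% critical value for 4 samples, which chance passes in about 1 of 20 groups. *Dkk3* in PT4 passed with a ratio of 0.843, since it was at 3.77 FPKM where the other PT libraries were at 0.356 or less. *Lrp6* passed in PT3 with a ratio of 0.880, at 9.08 FPKM against 18.4 to 20.2 FPKM. *Fzd10*, a Frizzled known from the developing nervous system, passed in PT2 with a ratio of 0.879, at 5.12 FPKM against 0.244 FPKM or less. AstroEGFR*2, of the same number, held the highest AstroEGFR* value, 3.83 FPKM. *Wnt2* had a ratio of 1 in PT2, where it was listed at 0.00900 FPKM and the other 3 libraries at 0, and since any value above 0 gives that ratio beside 3 values at 0, it tells nothing about PT2.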

How the results depend on the processing

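Between PT and AstroEGFR*, 3 members passed the threshold, and 3 did with a pseudocount of 0.1, without the filter, under both scalings, without the trend, with PT1 and PT4 averaged and with the replicate block that places PT4 in batch 1. The 3 were *Dkk3*, *Fzd6* and *Sfrp1* under both scalings, without the trend and with the average. With the pseudocount and that block *Wif1* stood in place of *Dkk3*. Without the filter *Wnt10b* did, a gene below 0.2 FPKM in AstroEGFR* that is named after its values were seen. The count was 1, *Fzd6*, with all 10 libraries in 1 fit, 0 with the replicate block that leaves PT4 unpaired, and 0 without AstroEGFR*3 and PT3. The cause was not tested. With 1 library left out the count ranged from 0 (without AstroEGFR*1) to 4 (without AstroEGFR*2). Over 306 values of 18 named members, 265 kept their direction and side of the threshold, 20 lost and 6 gained the call, and 15 changed sign, all of members with no call. The 15 were of *Fzd1*, *Tcf7* and *Ryk*. With the replicate block they were at 0.074, 0.062 and 0.041, and *Ryk* was at 0.041 with PT4 in batch 1 too. With PT1 and PT4 averaged *Fzd1* and *Ryk* were at 0.043 and 0.038, and without AstroEGFR*3 and PT3 *Ryk* was at 0.0079. With 1 library left out they ranged from -0.49 to 0.074, -0.59 to 0.23 and -0.18 to 0.096. Between AstroEGFR* with and without *Zfp423*, 0 members passed in any alternative that was run, the fit with no replicate block included, which is no sign that values are stable. There 7 of 162 values changed sign. *Fzd7* was at 0.0063 with median-ratio scaling and *Lrp5* at -0.0022 when scaled without small RNA. With 1 batch left out *Fzd7* ranged from -0.45 to 0.44, *Fzd5* from -1.95 to 0.19, *Wnt7b* from -2.74 to 1.58, *Lrp5* from -0.12 to 0.26 and *Dkk3* from -2.14 to 1.33. Over all features 152 passed between PT and AstroEGFR*, from 7 without AstroEGFR*1 to 475 with the block that places PT4 in batch 1, and with *Zfp423* 0 did, 2 without the block and 51 without replicate 2. Depth could not be set beside any value, since FPKM hold no counts, and AstroEGFR*3 and PT3 listed the fewest features above 0.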
